A study of Mus musculus with 24 samples.

Results

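The aminoacyl-tRNA synthetases were followed as a family of 36 mouse genes, 20 for the enzymes of the cytosol and 16 for the enzymes of the mitochondrion, in 3T3 fibroblasts exposed to powders of iron, manganese or an alloy of the metals. The members were taken by name from the bead-array tables, where each symbol that ends in 2 was placed in the mitochondrial group and each other symbol in the cytosolic group. All 36 members had a probe, on 81 of the 45281 probes of the array, and 34 of them (20 cytosolic, 14 mitochondrial) were above background on at least 6 of the 24 arrays and entered a table of 13283 tested genes. The mitochondrial Hars2 and Yars2, which charge the histidine and tyrosine tRNAs there, were not above background on enough arrays and have no comparison here.

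The cells were BALB/3T3 clone A31, an established line of embryonic fibroblasts from BALB/c mice, and each array measured their total RNA after 24 h. The control group received no metal powder. The iron group received pure iron at 3.25 mg/ml, the manganese group pure manganese at 0.5 mg/ml, and the alloy group Fe-35Mn powder at 5.0 mg/ml. Each powder lay in a culture insert above the cell layer, and the dose differed between the metals. Each group has 6 arrays that the labels call technical replicates, and all cells are of 1 line, so the p-values below measure only the spread between these arrays. Levels are log2 intensities after background correction and quantile normalisation. A level compares arrays for 1 gene and cannot be set against the level of another gene.

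An aminoacyl-tRNA synthetase joins an amino acid to the tRNA that reads its codon, and so supplies every step of protein synthesis. Mammalian cells keep separate nuclear genes for most cytosolic and mitochondrial enzymes, while Gars and Kars each encode both forms, for glycine and lysine. Some of the cytosolic enzymes sit in the multisynthetase complex, held together by the scaffold proteins Aimp1, Aimp2 and Eef1e1. Several cytosolic synthetase genes are known targets of the transcription factor ATF4, whose translation rises when amino acids run short or the endoplasmic reticulum is under stress.

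Some facts of the whole series bear on the values. The median probe intensity of an array was between 61.6 and 75.3, and 36.9% to 43.4% of probes were above background. The alloy arrays spread far more than the others: on the first principal component of all tested genes, which held 75.7% of the variance, they ran from 9.48 to 48.5, against 22.2 to 26.7 for manganese, -25.8 to -25.5 for control and -26.4 to -24.9 for iron. Alloy replicates 1, 3 and 4 stood highest on it, and the results with the alloy are given below without them as counts and ranges, with the value of each member whose call changes. All 7 fibroblast markers were above background, from collagen genes to Vim, and all 7 fell with manganese (median log2 difference -0.85) and with the alloy (-0.80, and -0.60 without those arrays), their summed intensity running from 27342 to 29312 on control arrays, 16060 to 18443 with manganese and 10513 to 21384 with the alloy. Of 5 macrophage markers, Ptprc, Csf1r and Adgre1 were below background, Cd68 rose and Lyz2 fell with manganese and with the alloy (Cd68 did not pass with the alloy without replicates 1, 3 and 4), and the summed intensity of the measured 2 stayed between 155 and 197 in all groups. Of 4 epithelial and 3 endothelial markers, 2 and 1 were measured, with no change past the test. In RNA from whole cultures, fewer cells of a type and less RNA per cell cannot be told apart, and the part these markers play in the results on synthetases was not tested.

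Most cytosolic synthetases rose with manganese, 13 of them by more than 0.5 on the log2 scale, while the mitochondrial ones changed by 0.30 at most and in both directions. Of the 20 cytosolic genes, 17 were higher on the manganese arrays and none was lower, at an adjusted p under 0.05 (limma, all 24 arrays in 1 model, Benjamini-Hochberg over all 13283 genes). Of all genes, 26.2% were higher and 28.1% lower. The median log2 difference from control was 0.68 over the cytosolic genes and -0.00027 over all genes. In the same 17 genes all 6 manganese arrays lay above all 6 control arrays, which held for 20.8% of all genes. Of the 14 mitochondrial genes measured, 6 rose, 2 fell and 6 did not pass the test, with a median of 0.091 and a range from -0.29 to 0.30. With no normalisation between arrays 15 cytosolic members rose, and 1 mitochondrial member rose and 2 fell. Under that setting 15.0% of all genes were higher with manganese and 25.8% lower.

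Among the cytosolic enzymes the rise reached more than 1 on the log2 scale in 5 genes: Nars, Sars, Aars, Wars and Cars, which charge the tRNAs for asparagine, serine, alanine, tryptophan and cysteine. For Aars, control arrays read 12.21 to 12.43 (median 12.26), iron arrays 12.14 to 12.40 (median 12.22), manganese arrays 13.38 to 13.53 (median 13.45) and alloy arrays 13.14 to 13.64 (median 13.40). The manganese and alloy arrays all lay above every control and iron array. The difference from control was 1.16 ± 0.068 (SE, 6 arrays a group) with manganese, a 2.24-fold rise (limma adjusted p = 1.92e-13), and 1.10 ± 0.068 with the alloy (limma adjusted p = 5.69e-13).

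Sars levels were 10.20 to 10.35 (median 10.28) on control, 10.34 to 10.47 (median 10.39) on iron, 11.46 to 11.61 (median 11.50) on manganese and 11.27 to 11.89 (median 11.45) on alloy arrays. Again no manganese or alloy array came down to the control range, and the alloy arrays were the more scattered. Its differences from control were 1.23 ± 0.072 with manganese and 1.25 ± 0.072 with the alloy, 2.35-fold and 2.38-fold (limma adjusted p = 2.05e-13 and 1.53e-13). Nars had the widest rise of the family, from 10.46 to 10.67 (median 10.53) on control arrays to 11.71 to 11.97 (median 11.80) with manganese and 11.60 to 12.39 (median 12.05) with the alloy, against 10.57 to 10.69 (median 10.65) with iron. These are differences of 1.27 ± 0.086 and 1.49 ± 0.086, or 2.41-fold and 2.80-fold (limma adjusted p = 3.26e-12 and 1.66e-13), with no overlap with control in either group.

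Cars read 7.45 to 7.74 (median 7.56) on control, 7.25 to 7.53 (median 7.44) on iron, 8.51 to 8.78 (median 8.67) on manganese and 8.31 to 8.73 (median 8.52) on alloy arrays. It rose by 1.08 ± 0.067 with manganese and 0.96 ± 0.067 with the alloy (limma adjusted p = 5.38e-13 and 5.86e-12). Wars, whose product loads tryptophan and whose gene is also known to respond to interferon in human cells, went from 9.73 to 9.95 (median 9.84) on control arrays to 10.72 to 11.06 (median 10.96) with manganese and 10.63 to 11.15 (median 10.76) with the alloy, and read 9.84 to 10.03 (median 9.88) with iron. Its differences were 1.09 ± 0.077 and 1.01 ± 0.077 (limma adjusted p = 6.66e-12 and 2.45e-11). Beside it, all 6 measured interferon-stimulated genes of a list of 7 rose with manganese (median 2.88) and with the alloy (median 1.90, and 1.44 without alloy replicates 1, 3 and 4), and their part in the Wars result was not tested.

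A second tier of cytosolic genes rose by 0.53 to 0.83 with manganese: Tars, Iars, Lars, Gars, Mars, Yars, Rars and Eprs. With the alloy Tars, for threonine, rose by 1.00, Lars, for leucine, by 0.66, Mars, for methionine, by 0.66, Yars, for tyrosine, by 0.71 and Rars, for arginine, by 0.56 (largest limma adjusted p = 2.33e-09). In these 5 genes no manganese or alloy array overlapped the controls. Iars, the isoleucine enzyme, had levels of 11.27 to 11.45 (median 11.36) on control, 11.20 to 11.38 (median 11.31) on iron, 12.08 to 12.26 (median 12.19) on manganese and 12.04 to 12.36 (median 12.20) on alloy arrays, with the lowest adjusted p among the cytosolic genes in the manganese comparison (0.81 ± 0.047 with manganese, limma adjusted p = 1.83e-13; 0.83 ± 0.047 with the alloy, 1.15e-13). Gars, whose gene serves glycine in both compartments, read 14.17 to 14.30 (median 14.26) on control, 14.16 to 14.28 (median 14.23) on iron, 14.85 to 15.09 (median 15.05) on manganese and 14.86 to 15.11 (median 14.97) on alloy arrays. Its differences were 0.77 ± 0.046 and 0.74 ± 0.046 (limma adjusted p = 2.36e-13 and 6.28e-13). Eprs, which makes the fused enzyme for glutamate and proline, rose from 9.82 to 10.13 (median 9.98) on control arrays to 10.38 to 10.63 (median 10.50) with manganese and 10.24 to 10.77 (median 10.57) with the alloy, and read 9.82 to 10.04 (median 9.96) with iron. The differences were 0.53 ± 0.072 and 0.58 ± 0.072 (limma adjusted p = 6.98e-07 and 1.38e-07).

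Smaller rises of 0.23 to 0.31 with manganese were measured in Farsa and Farsb, the subunits of the phenylalanine enzyme, in Hars for histidine and in Vars for valine. Vars read 11.37 to 11.59 (median 11.45) on control, 11.40 to 11.54 (median 11.48) on iron, 11.62 to 11.79 (median 11.70) on manganese and 11.42 to 11.84 (median 11.71) on alloy arrays, so that the manganese arrays cleared the control range by a narrow margin and the alloy arrays did not. Farsa and Farsb rose by 0.31 and 0.26 with manganese and by 0.31 and 0.23 with the alloy (largest limma adjusted p = 0.000256). The Vars differences were 0.23 ± 0.056 and 0.19 ± 0.056 (limma adjusted p = 0.00107 and 0.00413).

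Dars, Kars and Qars, for aspartate, lysine and glutamine, did not pass the test with manganese, and all 3 are enzymes of the multisynthetase complex. Kars stood at 11.10 to 11.25 (median 11.18) on control, 11.11 to 11.27 (median 11.18) on iron, 11.21 to 11.36 (median 11.26) on manganese and 11.26 to 11.46 (median 11.34) on alloy arrays. It differed from control by 0.10 ± 0.043 with manganese (limma adjusted p = 0.0558) and rose by 0.17 ± 0.043 with the alloy (limma adjusted p = 0.00127). Qars read 12.20 to 12.35 (median 12.27) on control, 12.32 to 12.41 (median 12.36) on iron, 12.18 to 12.27 (median 12.25) on manganese and 11.99 to 12.24 (median 12.08) on alloy arrays. It differed by -0.031 ± 0.041 with manganese (limma adjusted p = 0.554), and it was the only cytosolic member that fell with the alloy, by 0.18 on the log2 scale (limma adjusted p = 0.000714), in groups that overlapped. Without alloy replicates 1, 3 and 4 the Qars difference was -0.10 (adjusted p = 0.0572). Dars read 11.78 to 12.06 (median 11.94) on control, 11.82 to 12.04 (median 11.88) on iron, 11.89 to 12.09 (median 12.05) on manganese and 11.64 to 12.37 (median 12.00) on alloy arrays, and the groups overlapped throughout.

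Of the 8 enzymes of the complex, 5 rose with manganese, with a median of 0.53, and of the 12 cytosolic members outside it 12 rose, with a median of 0.80. By the structural class of the enzyme, 9 of 10 class I and 8 of 10 class II cytosolic enzymes rose. Over all genes the share higher with manganese was 26.2%. Class I and class II synthetases have unrelated catalytic domains, and no test was made between these subgroups. The scaffold genes of the complex all rose with manganese and with the alloy: Aimp1 by 0.26 with manganese and 0.34 with the alloy, Aimp2 by 0.40 and 0.36, and Eef1e1 by 0.64 and 0.70 (largest limma adjusted p = 7.01e-06). All 3 also rose with the alloy without its replicates 1, 3 and 4, by 0.30, 0.39 and 0.64.

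**Figure D1:**
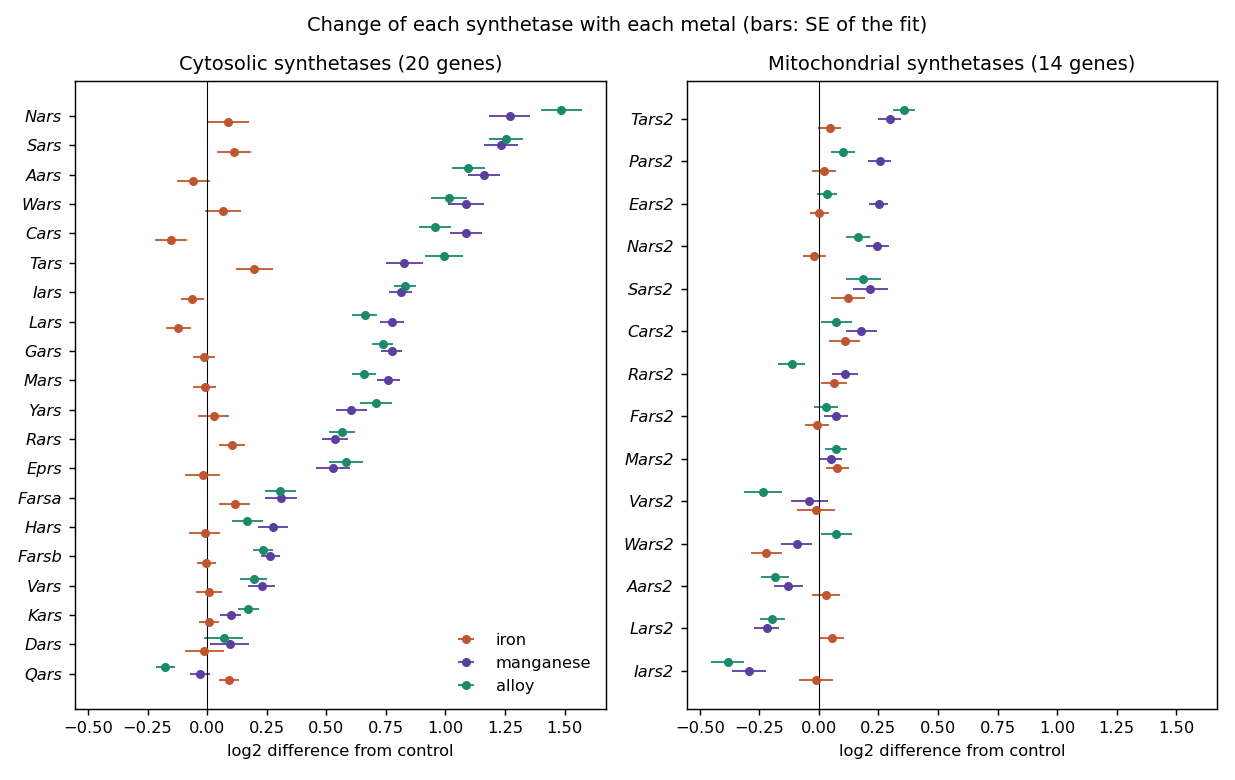
Log2 difference from control of each of the 20 cytosolic and 14 mitochondrial synthetases with iron, manganese and the alloy, with the standard error of the fit as bars and genes ordered by their manganese difference. The cytosolic genes run up to 1.49 with the alloy, while all mitochondrial differences lie between -0.38 and 0.36.

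Promoter sequence was available for 13 of the 20 cytosolic and 14 of the 16 mitochondrial members (RefSeq, build GRCm38.p6; 250 bases before to 50 after each annotated start). They were searched on both strands for TGATGNAA (TTNCATCA on the opposite strand), the core of the C/EBP-ATF response element that ATF4 is known to bind, where N is any base. A match was found in 5 of the 13 cytosolic promoters (38.5%) and in 0 of the 14 mitochondrial ones, against 1304 of 32851 promoters in the table (3.97%). A match is a description of these letters and not a bound site, and no test was made of these shares. The windows below hold 130 bases before and 20 after the start, 5′ to 3′ on the gene's strand, with each match in capitals. They are shown for the 5 cytosolic members with a match.

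Aars: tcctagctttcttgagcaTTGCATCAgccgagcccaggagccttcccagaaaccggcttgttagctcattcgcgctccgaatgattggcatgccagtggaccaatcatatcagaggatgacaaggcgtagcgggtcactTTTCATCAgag

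Gars: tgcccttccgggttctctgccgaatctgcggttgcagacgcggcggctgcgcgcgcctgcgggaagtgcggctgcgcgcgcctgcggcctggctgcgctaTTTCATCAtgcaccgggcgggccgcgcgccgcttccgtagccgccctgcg

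Iars: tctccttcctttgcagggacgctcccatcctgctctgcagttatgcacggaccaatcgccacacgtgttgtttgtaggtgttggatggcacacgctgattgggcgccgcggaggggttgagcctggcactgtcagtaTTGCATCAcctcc

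Tars: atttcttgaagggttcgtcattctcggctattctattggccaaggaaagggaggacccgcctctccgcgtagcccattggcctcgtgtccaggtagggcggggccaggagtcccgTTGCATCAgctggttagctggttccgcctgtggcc

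Yars: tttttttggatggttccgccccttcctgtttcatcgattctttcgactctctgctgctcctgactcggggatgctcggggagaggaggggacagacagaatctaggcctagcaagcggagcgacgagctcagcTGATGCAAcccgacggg

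Counting the annotated first base as position 1, with no position 0, the matches began at -112 and 10 in Aars (chr8:111033712-111033861, plus strand), at -30 in Gars (chr6:55037871-55038020, plus strand), at 8 in Iars (chr13:49682000-49682149, plus strand), at -15 in Tars (chr15:11399639-11399788, minus strand) and at 4 in Yars (chr4:129189773-129189922, plus strand). The Yars match reads on the gene's strand and the others on the opposite strand. With manganese these genes rose by 1.16, 0.77, 0.81, 0.83 and 0.61. The 8 other cytosolic promoters in the table held no match, and their genes ran from Qars at -0.031 to Sars at 1.23. For comparison the same windows follow for cytosolic genes that did not pass the test with manganese and for the mitochondrial partners of Aars and Iars, none of which holds a match.

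Dars: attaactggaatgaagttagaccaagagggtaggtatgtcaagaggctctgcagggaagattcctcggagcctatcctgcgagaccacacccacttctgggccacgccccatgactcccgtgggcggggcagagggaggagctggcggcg

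Qars: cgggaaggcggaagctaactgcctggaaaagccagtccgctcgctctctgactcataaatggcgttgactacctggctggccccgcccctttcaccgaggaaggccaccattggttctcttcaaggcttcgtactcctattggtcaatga

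Aars2: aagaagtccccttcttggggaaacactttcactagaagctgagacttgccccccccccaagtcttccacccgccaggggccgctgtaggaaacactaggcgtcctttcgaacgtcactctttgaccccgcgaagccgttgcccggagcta

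Iars2: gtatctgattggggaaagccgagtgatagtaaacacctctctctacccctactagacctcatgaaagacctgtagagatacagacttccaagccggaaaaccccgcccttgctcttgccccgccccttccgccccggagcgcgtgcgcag

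The Dars window lies at chr1:128417397-128417546, minus strand, and the Qars window at chr9:108507875-108508024, plus strand. Those of Aars2 and Iars2 lie at chr17:45506702-45506851, plus strand, and at chr1:185329382-185329531, minus strand. Genes of the amino acid response, listed with earlier results of these data known, were read beside the synthetases: 14 of 15 were measured and all 14 rose with manganese (median 1.21) and with the alloy (median 1.35, and 1.16 with all 14 higher without alloy replicates 1, 3 and 4). Atf4 itself rose by 1.09 and 1.21, and Asns, the asparagine synthetase that lies outside this family, by 0.81 and 0.91 (largest limma adjusted p of the 4 values 1.33e-13). With iron 0 of the 14 passed the test.

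The mitochondrial enzymes split with manganese. Tars2, Pars2, Ears2, Nars2, Sars2 and Cars2 rose, by 0.18 to 0.30, and Iars2 and Lars2 fell. Aars2, Fars2, Mars2, Rars2, Vars2 and Wars2 did not pass the test. Their changes were small beside those of the cytosol: no mitochondrial member went beyond 0.30 upward or -0.29 downward. Of the 6 class II enzymes measured 4 rose and 0 fell, and of the 8 class I enzymes 2 rose and 2 fell. The class I counts are near the shares over all genes, 26.2% higher and 28.1% lower.

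Tars2, for threonine, read 8.66 to 8.81 (median 8.70) on control, 8.66 to 8.85 (median 8.76) on iron, 8.94 to 9.12 (median 9.01) on manganese and 8.94 to 9.21 (median 9.06) on alloy arrays. Neither the manganese nor the alloy arrays overlapped the controls, and Tars2 was the mitochondrial member that rose most with manganese and with the alloy, by 0.30 ± 0.047 and 0.36 ± 0.047 (limma adjusted p = 7.14e-06 and 4.19e-07). Nars2, for asparagine, read 6.70 to 6.87 (median 6.82) on control, 6.76 to 6.82 (median 6.78) on iron, 6.91 to 7.16 (median 7.04) on manganese and 6.81 to 7.16 (median 6.96) on alloy arrays. It rose by 0.25 ± 0.049 and 0.16 ± 0.049 (limma adjusted p = 0.000147 and 0.00598), the alloy group overlapping the controls.

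Sars2, for serine, had levels of 7.25 to 7.54 (median 7.44) on control, 7.45 to 7.62 (median 7.55) on iron, 7.54 to 7.82 (median 7.63) on manganese and 7.42 to 7.95 (median 7.59) on alloy arrays, overlapping throughout. The differences of 0.22 ± 0.072 and 0.19 ± 0.072 passed the test (limma adjusted p = 0.0134 and 0.0304), but the alloy value was 0.086 without alloy replicates 1, 3 and 4 (adjusted p = 0.304). With no normalisation between arrays the Sars2 alloy difference was -0.0029 (adjusted p = 0.973). Cars2, for cysteine, read 9.21 to 9.41 (median 9.30) on control, 9.32 to 9.53 (median 9.37) on iron, 9.42 to 9.54 (median 9.48) on manganese and 9.12 to 9.56 (median 9.41) on alloy arrays. It rose by 0.18 ± 0.065 with manganese (limma adjusted p = 0.0218) and differed by 0.073 ± 0.065 with the alloy (limma adjusted p = 0.361), where it was at 0.23 without alloy replicates 1, 3 and 4 (adjusted p = 0.000749). The manganese arrays of Cars2 just cleared the controls.

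Ears2 and Pars2, which charge glutamate and proline tRNAs in the mitochondrion, rose with manganese and did not pass the test with the alloy. Ears2 read 9.13 to 9.24 (median 9.19) on control, 9.12 to 9.32 (median 9.18) on iron, 9.34 to 9.54 (median 9.44) on manganese and 9.15 to 9.28 (median 9.25) on alloy arrays, so that every manganese array stood above every other array. It differed from control by 0.25 ± 0.041 with manganese (limma adjusted p = 1.02e-05) and 0.035 ± 0.041 with the alloy (limma adjusted p = 0.502). Pars2 read 8.01 to 8.12 (median 8.04) on control, 7.98 to 8.14 (median 8.07) on iron, 8.21 to 8.42 (median 8.29) on manganese and 7.97 to 8.25 (median 8.18) on alloy arrays. Its differences were 0.25 ± 0.049 and 0.10 ± 0.049 (limma adjusted p = 7.86e-05 and 0.0814).

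Iars2 and Lars2, for isoleucine and leucine, fell with manganese and with the alloy. Iars2 went from 10.85 to 10.99 (median 10.89) on control arrays to 10.45 to 10.72 (median 10.64) with manganese and 10.23 to 10.73 (median 10.54) with the alloy, and stayed at 10.85 to 10.95 (median 10.89) with iron. No manganese or alloy array reached the control range, and alloy replicates 1, 3 and 4 were the lowest. It fell by 0.29 ± 0.071 and by 0.38 ± 0.071 on the log2 scale (limma adjusted p = 0.000948 and 4.47e-05), and stood at -0.19 without these alloy arrays (adjusted p = 0.00346). Lars2 read 8.71 to 8.89 (median 8.75) on control, 8.80 to 8.84 (median 8.83) on iron, 8.53 to 8.61 (median 8.54) on manganese and 8.29 to 8.70 (median 8.61) on alloy arrays. It fell by 0.22 ± 0.052 and by 0.20 ± 0.052 (limma adjusted p = 0.000807 and 0.00225), and the alloy difference was -0.10 without alloy replicates 1, 3 and 4 (adjusted p = 0.0517).

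Mammalian mitochondria are known to charge the glutamine tRNA through an amidotransferase made of Qrsl1, Gatb and Gatc rather than by a dedicated synthetase. Qrsl1 rose by 0.29 and Gatc by 0.29 with manganese, while Gatb fell by 0.30 on the log2 scale (largest limma adjusted p = 0.00106). Over the 7 measured genes of the other charging factors, 2 rose and 2 fell with manganese and 3 rose and 2 fell with the alloy, with and without alloy replicates 1, 3 and 4. With manganese these counts are near the shares over all genes, 26.2% higher and 28.1% lower. Among 5 cytosolic elongation factors, 2 rose and 1 fell with manganese (Eef1d 0.15, Eef1g 0.19, Eef2 -0.34), and among 4 mitochondrial ones Tsfm rose (0.30) and Gfm2 fell (-0.31).

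**Figure D2:**
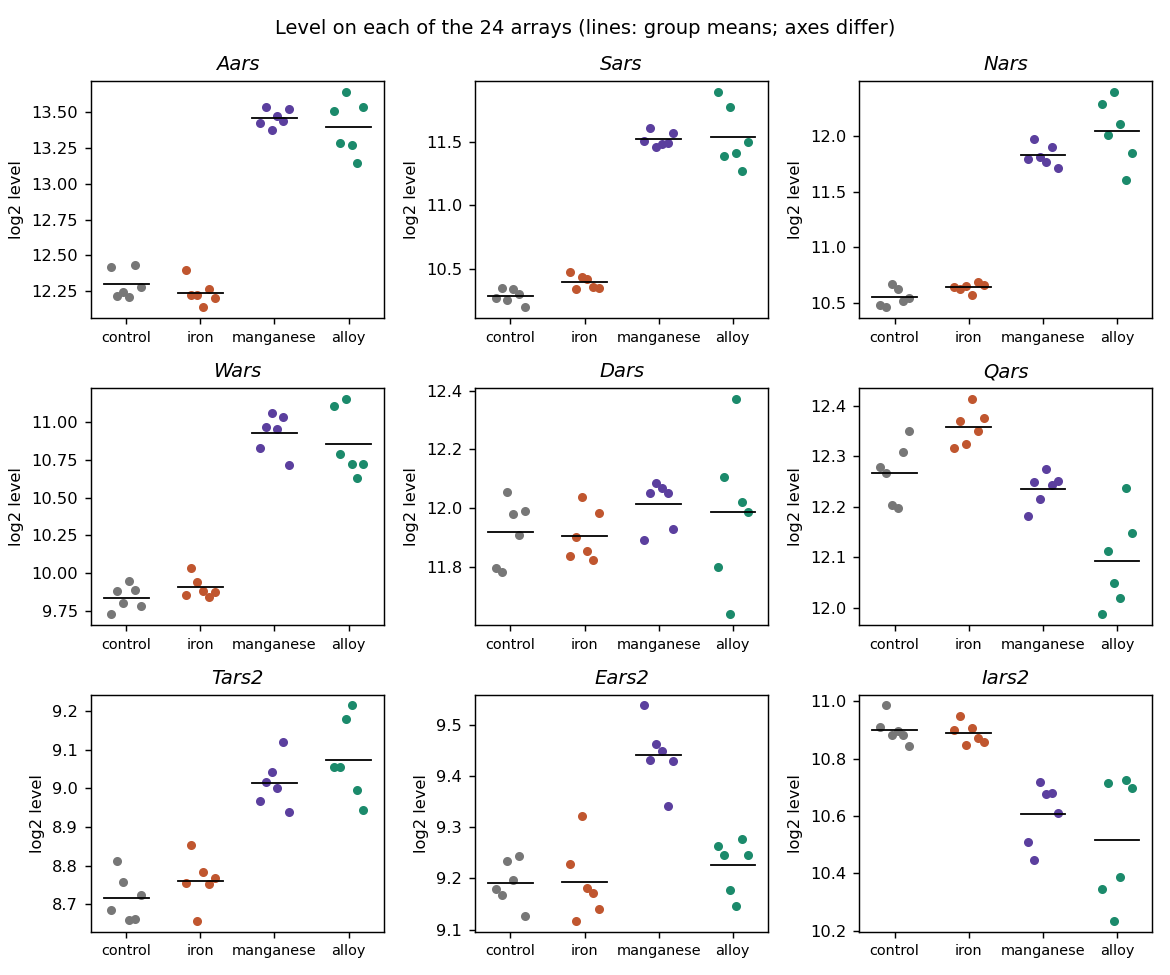
Log2 level of 9 synthetases on each of the 24 arrays by group, with lines at the group means and a separate axis for each gene. Aars, Sars, Nars and Wars sit above the control range on every manganese and alloy array, Dars overlaps in all groups, Ears2 is high on manganese arrays alone, and Iars2 is lower on every manganese and alloy array.

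With the alloy, too, most cytosolic members rose. This comparison uses the same 6 control arrays as that with manganese. Of the 20 cytosolic genes 18 rose, Qars fell and Dars did not pass the test, against 26.9% of all genes higher and 29.2% lower. The median was 0.66, against -0.0066 over all genes. In 16 cytosolic genes every alloy array lay above every control array, which held for 15.3% of all genes. Nars, Sars, Aars and Wars rose by more than 1 on the log2 scale, and Tars came just short of it. Without alloy replicates 1, 3 and 4, 17 cytosolic genes rose and 0 fell, with a median of 0.60, against 24.5% of all genes higher and 25.5% lower. These 17 differences ran from 0.12 in Kars to 1.26 in Nars. Hars, at 0.17 with all arrays (limma adjusted p = 0.0306), was at 0.052 (adjusted p = 0.551).

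Of the 14 mitochondrial genes 3 rose with the alloy (Tars2, Nars2 and Sars2) and 4 fell (Iars2, Vars2, Lars2 and Aars2), with a median of 0.053. These counts are near the shares over all genes, 26.9% higher and 29.2% lower. Aars2, for alanine, stood at -0.19 (limma adjusted p = 0.00913) and Vars2, for valine, at -0.23 (limma adjusted p = 0.0123), both in groups that overlapped the controls. Aars2 was above background on 4 of the 6 alloy arrays and on all others. In a limma fit of the alloy and control arrays alone, Hars, Sars2 and Vars2 did not pass (adjusted p = 0.0733, 0.0965 and 0.0577). Without alloy replicates 1, 3 and 4 only 4 mitochondrial members passed, 3 higher (Tars2, Cars2 and Nars2) and 1 lower (Iars2), and Aars2 and Vars2 were at -0.091 and -0.049 (adjusted p = 0.253 and 0.512). Without those arrays 24.5% of all genes were higher and 25.5% lower. With no normalisation between arrays the median of all genes with the alloy moved to -0.13, and the calls over all genes went from 3572 higher and 3878 lower to 1491 and 5006. Under that setting 13 cytosolic members rose and 1 fell, and 0 mitochondrial members rose and 5 fell, with medians of 0.53 and -0.15. With median scaling the calls over all genes were 1978 higher and 4659 lower, and the mitochondrial median with the alloy was -0.11, so the sign of the mitochondrial median depends on the scaling.

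With iron none of the 34 members passed the test (limma), against 0.241% of all genes. At an unadjusted p under 0.05 there were 4 cytosolic members, Cars (-0.15), Lars (-0.12), Qars (0.091) and Tars (0.20), and 1 mitochondrial member, against 8.5% of all genes. The medians were 0.0015 and 0.026. The mitochondrial member was Wars2, for tryptophan, which read 8.17 to 8.33 (median 8.26) on control, 7.85 to 8.22 (median 8.04) on iron, 8.07 to 8.22 (median 8.17) on manganese and 8.10 to 8.58 (median 8.36) on alloy arrays. The iron arrays overlapped the controls at the upper end. Its difference was -0.22 ± 0.065 with iron (limma adjusted p = 0.192), and a limma fit of the iron and control arrays alone called it lower (adjusted p = 0.0323), where 1.57% of all genes were called lower. With manganese and the alloy Wars2 differed by -0.094 and 0.072 (limma adjusted p = 0.236 and 0.367).

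Set against manganese directly, the alloy arrays were lower in 4 members and higher in 0, with 6.28% of all genes higher and 8.83% lower; the doses were 5.0 and 0.5 mg/ml, so dose and composition cannot be told apart. The 4 were Qars (-0.14 ± 0.041, limma adjusted p = 0.0201), Ears2 (-0.22 ± 0.041, 0.000936), Rars2 (-0.22 ± 0.055, 0.00742) and Pars2 (-0.15 ± 0.049, 0.0337). Rars2, the mitochondrial arginine enzyme, read 9.91 to 10.05 (median 9.97) on control, 9.96 to 10.08 (median 10.06) on iron, 10.04 to 10.14 (median 10.08) on manganese and 9.64 to 10.06 (median 9.89) on alloy arrays. Its median lay above the control median with manganese and below it with the alloy, where the arrays overlapped the controls. Neither difference from control, 0.11 and -0.12, passed the test (limma adjusted p = 0.0987 and 0.0772). Without alloy replicates 1, 3 and 4 the Rars2 difference of the alloy from control was 0.0042. In a limma fit of the manganese and alloy arrays alone, Ears2 was the only one of the 4 that passed (adjusted p = 0.0234), where 2.27% of all genes were lower. Without alloy replicate 1 neither Qars nor Pars2 passed. Across the alternatives the Pars2 call was lost in 10 settings, that of Qars in 7 and that of Rars2 in 2. Without alloy replicates 1, 3 and 4, Ears2 and Pars2 were lower with the alloy than with manganese (-0.19 and -0.20, adjusted p = 0.00892 and 0.0163), while Rars2 and Qars were at -0.10 and -0.071 (adjusted p = 0.139 and 0.311). Hars, Lars and Wars passed in that fit, at -0.22, -0.18 and -0.21 (adjusted p = 0.0195, 0.0295 and 0.0253), where 7.27% of all genes were higher and 8.29% lower.

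To ask whether the compartments changed unequally, each cytosolic gene was set against the mitochondrial gene for the same amino acid on the same array, which gave 15 measured pairs of 17 listed. Eprs was paired with Ears2 and with Pars2, and Fars2 with Farsa and with Farsb, so these pairs share a member. A pair sets the changes of different probes side by side, and probes of 1 gene can differ in their change. With manganese the 2 kept probes of Aars gave 0.36 and 1.16, and those of Lars 0.78 and 0.78. The lowest of the 3 Eprs probes gave 0.13, less than the 0.25 of the probes used for Ears2 and Pars2. The sign of the Eprs pairs with manganese thus depends on the probe used. The part of probe brightness in the pair differences was not tested. For each pair the cytosolic minus the mitochondrial log2 level was taken relative to its control mean and compared by an exact two-sided permutation test over the 924 splits of 6 metal and 6 control arrays, whose smallest p is 0.00216. All 15 differences were positive with manganese, from 0.19 to 1.29 with a median of 0.71, and all 15 were positive with the alloy, from 0.21 to 1.32 with a median of 0.68. Each had an exact p under 0.05, also after Benjamini-Hochberg adjustment over the 45 tests of pairs and metals. The metal arrays lay wholly above the control arrays in 10 pairs with manganese and 13 with the alloy. Among single genes this held for 20.8% of all genes with manganese and 15.3% with the alloy. No share over other pairs of genes was computed, so how unusual the pair counts are cannot be said. With alloy replicates 1, 3 and 4 left out, all 15 alloy differences were positive, from 0.23 to 1.11 with a median of 0.64, and each had an exact p under 0.05 (84 splits, smallest p 0.0119, largest 0.0238).

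For Aars against Aars2 the manganese arrays ran from 1.08 to 1.41 and the alloy arrays from 0.84 to 1.66, against -0.24 to 0.21 on control arrays (exact p = 0.00216 for each). With manganese this was the largest gap of the 15 pairs, and Aars2 was above background on only 4 of the 6 alloy arrays. For Iars against Iars2 the ranges were 1.00 to 1.26 and 0.84 to 1.66, against -0.076 to 0.068 (exact p = 0.00216 for each), with the genes moving in opposite directions. Lars against Lars2 gave 0.79 to 1.13 with manganese and 0.60 to 1.27 with the alloy, against -0.12 to 0.11 on control arrays (exact p = 0.00216 for each).

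In the Nars and Tars pairs both genes rose, and the probe used for the cytosolic one rose further. Nars against Nars2 gave 0.88 to 1.21 with manganese and 0.83 to 1.68 with the alloy, against -0.13 to 0.10 on control arrays (exact p = 0.00216 for each). Tars against Tars2 gave 0.32 to 0.65 and 0.21 to 0.86, against -0.18 to 0.21 (exact p = 0.00216 for each). The narrowest gap was that of Farsb against Fars2, 0.059 to 0.28 with manganese and 0.10 to 0.32 with the alloy against -0.082 to 0.17 on control arrays, which overlap (exact p = 0.0130 and 0.0152). Vars against Vars2 gave 0.078 to 0.43 with manganese, overlapping the controls at -0.069 to 0.10 (exact p = 0.00433).

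With iron 7 of the 15 pair differences were positive, with a median of -0.011, and 5 had an exact p under 0.05, 4 of them after adjustment over the 45 tests. They were Wars against Wars2 (0.29, exact p = 0.00433), Cars against Cars2 (-0.26, 0.0108), Lars against Lars2 (-0.17, 0.0130), Farsa against Fars2 (0.12, 0.0195) and Nars against Nars2 (0.11, 0.0433), the last of which had an adjusted exact p of 0.0557. In none did the iron and control arrays separate fully. The adjustment over the 45 tests pooled the iron pairs with the manganese and alloy pairs, which all had an exact p under 0.05. Such pooling lowers the adjusted values of the iron pairs, and no adjustment over the iron pairs alone was made. Without control replicate 2, 3 of the iron pairs had an exact p under 0.05.

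**Figure D3:**
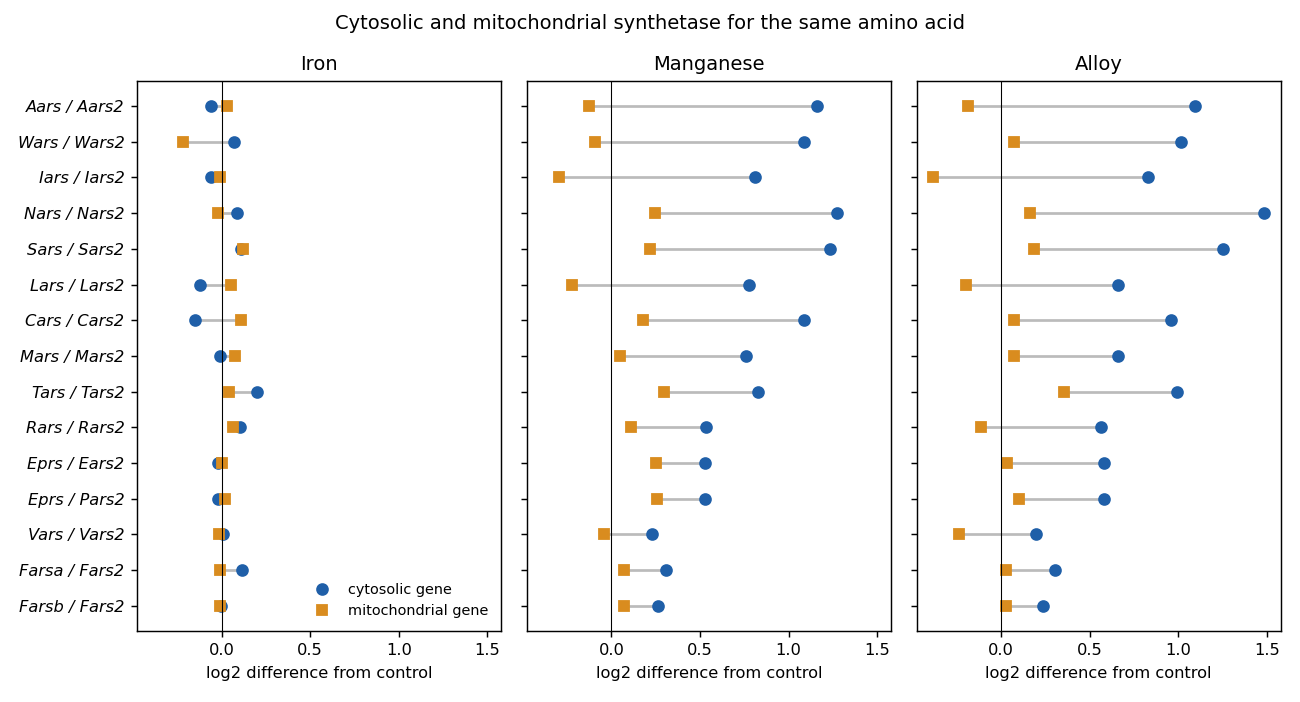
Log2 difference from control of the cytosolic gene (circle) and the mitochondrial gene (square) for the same amino acid, joined by a line, in 15 pairs and for each metal. With manganese and the alloy every circle lies to the right of its square, with median gaps of 0.71 and 0.68, while with iron the median gap is -0.011.

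Array by array, the median deviation of the 20 cytosolic genes from their control means was 0.59 to 0.76 on manganese arrays and 0.50 to 0.76 on alloy arrays, against -0.024 to 0.025 on control and -0.0040 to 0.045 on iron arrays. The same median over the 14 mitochondrial genes was 0.037 to 0.14 with manganese, -0.066 to 0.082 with the alloy, -0.044 to 0.069 on control and -0.0013 to 0.042 on iron arrays. The cytosolic medians of the manganese and alloy arrays were far from the controls on all 12 arrays, while the mitochondrial medians overlapped the controls in each group. The spread of a gene between arrays, as the median SD, was 0.15 for cytosolic and 0.14 for mitochondrial members on alloy arrays against 0.072 and 0.061 on control arrays, and 0.15 against 0.076 over all genes.

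**Figure D4:**
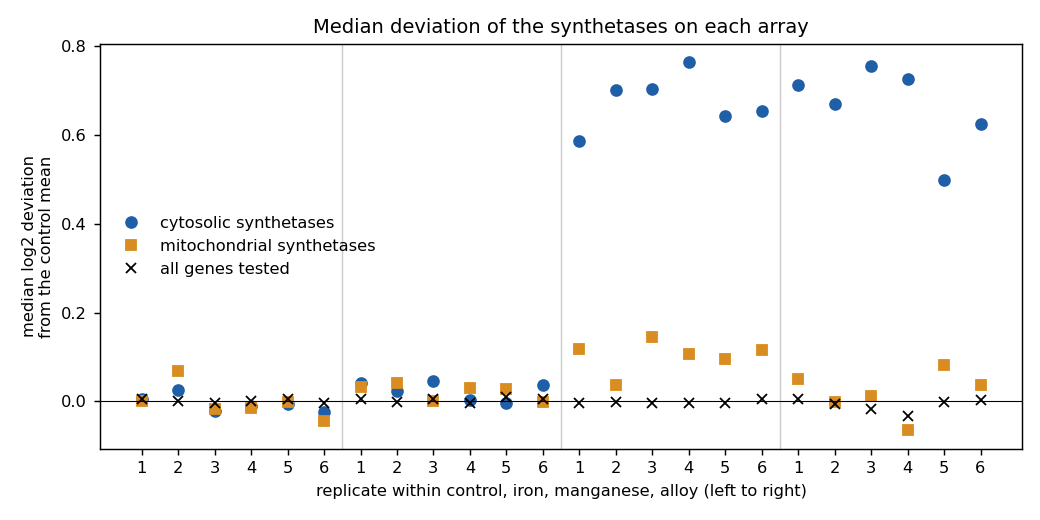
Median log2 deviation from the control mean of the 20 cytosolic synthetases, the 14 mitochondrial synthetases and all tested genes on each array, grouped as control, iron, manganese and alloy. The cytosolic points of manganese and alloy arrays lie between 0.50 and 0.76, and the highest mitochondrial point is at 0.14.

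The gene values above rest on the brightest kept probe. For 21 members several probes were kept, 15 cytosolic and 6 mitochondrial. With manganese the calls of the probes differed in 7 members and with the alloy in 4, and in 0 members were probes called in opposite directions. All kept probes had a positive difference with manganese in 14 of the 15 cytosolic and 2 of the 6 mitochondrial members. For Iars the 4 probes ran from 0.030 to 0.81 with manganese, the 2 dimmer probes being the lower ones, and for Aars the dimmer probe, above background on no control array, gave 0.36 against 1.16. The Iars probe at 0.21 was also above background on no control array. This Iars probe and the dimmer Aars probe passed the filter only through manganese and alloy arrays, so their positive differences add no support. For Qars the 3 probes ran from -0.25 to -0.031, with 1 called lower, and for Cars2 the 3 probes from 0.019 to 0.18, with 1 called higher. The 3 probes of Pars2 ran from -0.0021 to 0.25, with 2 called higher. The 3 probes of Wars2 ran from -0.26 to -0.094 with manganese, with 1 called lower, and those of Eprs from 0.13 to 0.53, with 2 called higher. For Vars the 3 probes ran from 0.12 to 0.23 with manganese, with 2 called higher. With the alloy they ran from 0.053 to 0.19, with 1 called higher. The 2 Kars probes gave 0.099 and 0.17 with the alloy, with 1 called higher. With the alloy the 3 Qars probes ran from -0.24 to -0.11, with 2 called lower. The 3 Rars2 probes ran from -0.122 to -0.115, with 1 called lower.

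**Figure D5:**
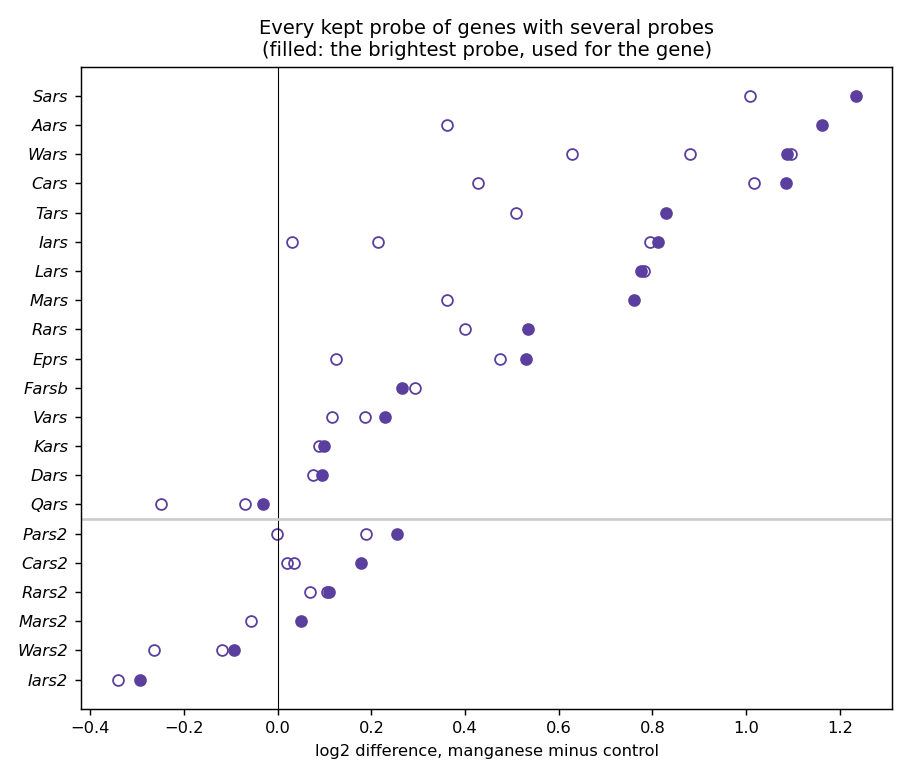
Log2 difference with manganese of every kept probe of the 21 synthetases with several probes, with the brightest probe of each gene filled and a line between cytosolic genes (above) and mitochondrial genes (below). The probes of Lars and Kars nearly coincide, while those of Iars run from 0.030 to 0.81.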

How the data were processed

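Total RNA was measured on 24 Illumina mouse bead arrays, 4 groups of 6, grouped by the labels. The non-normalized probe table deposited by the authors gives a linear intensity for each of 45281 probes (per the file headers), and their gene table the mean of the probe intensities for each symbol, which was checked on 30760 symbols (tolerance 0.1%). The authors' normalized probe and gene tables hold log2 values, and the normalized probe table equals the series' value table. The tools lumi and RMA appear in the submitters' processing notes, with neither role nor version given. Arrays give no read depth, and their number limits the precision.

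The members and gene lists were chosen with earlier results of these data known. The 81 member probes were found under the array's symbol (67) or the platform annotation (14). Mars2 was found through the annotation alone, its rows carrying other symbols. Of all probes, 34885 have 1 annotated gene, 18 have several and 10378 kept the array's symbol.

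Rows of the non-normalized and normalized probe tables were paired within each symbol by their ranks within arrays, with SciPy 1.17.1. Intensities were corrected with normexp (offset 50) and quantile normalised in limma 3.58.1 (R 4.3.3). Permutation tests were run with NumPy 2.4.6, tables made in pandas 2.3.3 and plots in Matplotlib 3.10.9, under Python 3.11.15. A probe counted as above background where its log2 intensity passed the array's mode by the normal quantile that leaves 1% above it. Probes above background on at least 6 arrays were kept (20205), and the brightest probe stood for its gene. All 24 arrays were fitted in 1 model with lmFit and eBayes, which was tested on simulated data, and p-values were adjusted over 13283 genes with a threshold of 0.05. Pairs were compared with an exact permutation test. Whether the replicate numbers pair the arrays was not settled, and the main model does not use them. The deviations of 36 pairs of arrays with the same number correlated by -0.20 to 0.35, 13 of them above 0.1. Arrays with unlike numbers were not compared in this way. Values were given in every group for the 5 members of each compartment with the smallest adjusted p with manganese, members called against most of their compartment, members called with iron, Wars, Wars2, Gars and Kars, and members whose probes differed in call. Nars and Dars were added after their values were seen. Other members were given by counts, ranges and log2 differences. The alternatives were the other deposited tables, other background, scaling, filter and probe rules, array weights, the compared groups alone, the replicate number as a block, and each array left out. Leaving out alloy replicates 1, 3 and 4, or all alloy arrays, was added after seeing the data.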

Additional observations from a re-analysis of the deposited data

Results flagged for a closer look

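In 88 groups of 6 arrays (22 synthetases with values given for every group, in 4 groups), 3 single arrays lay far from the other 5. Chance gives about 5% of such groups. Gars on manganese replicate 1 read 14.85, below the other manganese arrays at 15.00 to 15.09. Lars2 on alloy replicate 3 read 8.29, below the other alloy arrays at 8.58 to 8.70. Pars2 on control replicate 2 read 8.12, above the other control arrays at 8.01 to 8.05.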

How the results depend on the processing

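With each array left out in turn, the count of synthetases past the test was 17 to 18 for cytosolic and 7 to 9 for mitochondrial members with manganese, 18 to 19 and 6 to 8 with the alloy, and 0 and 0 with iron. Against manganese, the alloy counts were 0 to 2 for cytosolic members (0 without alloy replicate 1, and 2 without replicate 4, 5 or 6) and 2 to 5 for mitochondrial ones (5 without alloy replicate 5). The pair counts at an exact p under 0.05 were 15 to 15 with manganese and with the alloy, and 3 to 7 with iron. The other alternatives gave pair counts of 13 to 17 with manganese, 14 to 16 with the alloy and 4 to 6 with iron. The number of the 17 listed pairs that could be measured was not the same in all of these settings. Under the other alternatives the cytosolic count was 15 to 18 with manganese and 14 to 19 with the alloy. With iron, array weights called 1 cytosolic and 1 mitochondrial member, where they called 214 genes higher and 324 lower, and the authors' normalized gene table, the fit of the iron and control arrays alone and the fit with no alloy arrays each called 1 mitochondrial member. With no normalisation between arrays the mitochondrial count with manganese was 3. Without alloy replicates 1, 3 and 4 it was 4 with the alloy, and 3 cytosolic members differed between alloy and manganese. With all alloy arrays, the count of cytosolic members that differed between alloy and manganese was 1 in the main fit. It was 0 under median scaling, with no normalisation and with the mean of the probes of a gene. It was also 0 in the fit of the alloy and manganese arrays alone, which left 1 mitochondrial member. The replicate block changed no count of synthetases: 17 cytosolic and 8 mitochondrial with manganese, 19 and 7 with the alloy. Over 5148 values of single members under alternatives, 5020 kept their side of the threshold, 70 lost it and 57 gained it. The sign turned in 139 of them, of which 1 had passed the test before (Sars2, alloy against control, at -0.0029 with no normalisation) and 0 passed it after. The causes were not tested. The Hars call with the alloy was lost in 11 settings and the Cars2 call with manganese in 5, and Kars passed with manganese in 11. Signal over background limits the dimmest members: Hars2 and Yars2 could not be compared.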

Other observations

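Set against manganese at unequal doses, 2 of the 7 measured charging factors outside the family, Qrsl1 and Sepsecs, were higher with the alloy and 0 were lower, where 6.28% of all genes were higher and 8.83% lower. Sepsecs, which makes the selenocysteine tRNA, rose with the alloy (log2 difference 0.29, limma adjusted p = 0.000121) and was at 0.075 with manganese (limma adjusted p = 0.287). The direct difference was 0.21 for Sepsecs and 0.15 for Qrsl1 (limma adjusted p = 0.0143 and 0.0290). Dtd1, which removes D-amino acids from mischarged tRNA, fell by 0.41 with manganese and by 0.39 with the alloy on the log2 scale (limma adjusted p = 4.92e-05 and 7.16e-05), a direct difference of 0.015 (limma adjusted p = 0.920). Among the mitochondrial elongation factors, Gfm1 was higher with the alloy than with manganese by 0.20 and Tsfm by 0.15, and Gfm2 differed by -0.22 (limma adjusted p = 0.00987, 0.0142 and 0.00661). Without alloy replicates 1, 3 and 4 none of these 5 differences between alloy and manganese passed the test: they were 0.12 for Sepsecs, 0.071 for Qrsl1, 0.11 for Gfm1, 0.13 for Tsfm and -0.14 for Gfm2 (adjusted p = 0.160, 0.278, 0.192, 0.0625 and 0.0940).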
